A study of Homo sapiens with 3 samples.

Results

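The BCL2 family was examined through 10 genes, BCL2, BCL2L1, MCL1, BAX, BAK1, BBC3, PMAIP1, BCL2L11, BIK and BMF, found by gene symbol among 61550 genes in the deposited table. RNA-seq came from HK1, an established nasopharyngeal carcinoma cell line, after incubation with activated human CD8+ T cells. The group called WT had 1 library of HK1 cells with the genotype label WT, which does not say whether they carried a control guide. The FLI1 KO group had 2 libraries of HK1 cells edited at FLI1, a transcription factor gene of the ETS family, with the guide sgFLI1-1 or sgFLI1-2. All 3 cultures had met T cells, so no library shows the family in resting HK1 cells, and the labels do not say whether a KO line was 1 clone or a pool. Values given in threes follow the order WT, library labelled sgFLI1-1, library labelled sgFLI1-2.

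The family controls whether the outer membrane of the mitochondrion is breached during apoptosis. The effector proteins BAX and BAK (encoded by BAX and BAK1) form the pores through which cytochrome c escapes. The survival proteins BCL-2, BCL-XL (BCL2L1) and MCL-1 hold the effectors and their activators in check. BH3-only proteins, among them PUMA (BBC3), NOXA (PMAIP1), BIM (BCL2L11), BIK and BMF, carry stress signals and either bind the survival proteins or activate the effectors. Much of this control acts on protein binding, stability and splicing, which counts per gene do not measure: BCL2L1, MCL1 and BCL2L11 each make isoforms with different activity, and here each was measured as 1 sum.

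The libraries held 22172158, 23904587 and 22409203 gene counts. FLI1 itself had 125, 11 and 109 counts, so its mRNA was low in the library labelled sgFLI1-1 and close to WT in the library labelled sgFLI1-2. A small insertion or deletion need not change mRNA, and directions given for the latter rest on its label. Of 20 T cell markers 15, 18 and 16 had no count, including CD3D, CD3E, CD3G, CD2, CD8A and CD8B in all libraries. IL7R made up nearly all of their summed level (47.3, 37.5 and 44.9 FPKM, that is fragments scaled to transcript length and to sequencing depth), with 46.2, 37.5 and 44.2 FPKM of its own. Of 12 epithelial markers 11, 9 and 10 had counts, with a summed level of 1615, 1804 and 1860 FPKM. KRT8 and KRT18 carried most of it. CDH1 had 14, 40 and 23 counts, EPCAM 183, 160 and 93, and KRT19 330, 34 and 86. The squamous markers KRT5, KRT6A, KRT14 and TP63 had 44 counts or fewer in each library and PKP1 had none. On the same list KRT17 had 996, 790 and 641 counts and DSP 2055, 2306 and 2446, so the list beyond KRT8 and KRT18 was not low throughout.

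Among the 10 genes, BAK1 was the 1 whose mRNA passed the test between KO and WT. It did not pass under quantile normalization or when genes with low counts were kept. BAK1 fell 2.42-fold, while BAX, the other effector gene, had a log2 fold change of -0.08. The abundant survival genes MCL1 and BCL2L1 had smaller log2 fold changes of -0.48 and -0.26, and scarce BCL2 had 0.88, none of which passed the test. The summed mRNA of the survival genes stood at 2.78 times that of the pro-death genes in WT and at 2.79 ± 0.31 times in KO (SD, n = 2), with WT between the KO libraries by FPKM. The balance changed with the way it was drawn up, as described further on.

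**Figure D1:**
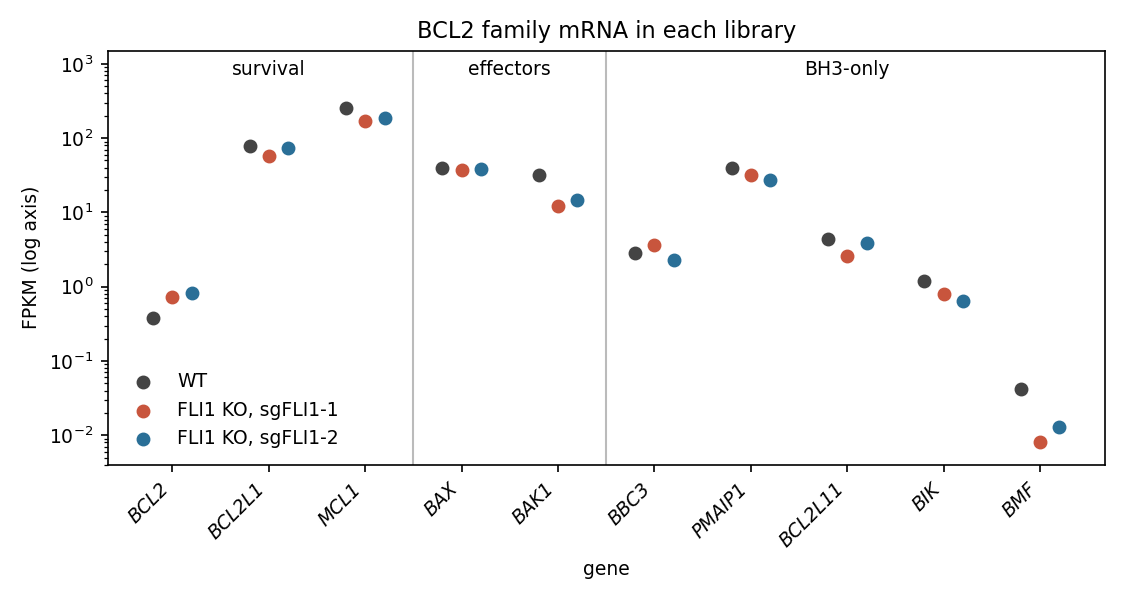
Level of each of the 10 genes in FPKM on a log axis, with 1 point per library (WT, FLI1 KO with sgFLI1-1, FLI1 KO with sgFLI1-2) and the genes grouped by role. MCL1 is the highest in every library and BMF the lowest, and BAK1 is the gene whose KO points lie farthest below WT among those above 1 FPKM.

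Calls were made with edgeR's quasi-likelihood test over 15483 genes at a Benjamini-Hochberg adjusted p under 0.05 and a change of at least 2-fold. A log2 fold change compares both KO libraries with WT. Of the 9 members that passed the filter on low counts, 1 fell and 0 rose, beside 2.95% of all tested genes called lower, 1.83% called higher and 4.78% called in either direction. BMF did not pass the filter. The 0 higher calls were also 0 with DESeq2 and at an unadjusted p under 0.05, and 3 members (BAK1, MCL1 and PMAIP1) were lower at that unadjusted level. The share of all tested genes at that unadjusted level was not computed. Unadjusted counts, here and for the lists further on, therefore have no background beside them. By adjusted p without a fold threshold the count was still 1, beside 6.88% of tested genes. Both KO libraries lay below WT in CPM (counts scaled to the library total) for 7 of the 9 members and above it for 1, whereas 40.9% of tested genes lay below in both and 38.3% above in both. The median log2 fold change of the 9 members was -0.42 and that of all tested genes 0.001, with quartiles of -0.36 and 0.31. Only 1 residual degree of freedom was left in the fit, and the variation of the single WT sample is not measured. The labels do not name separate cultures, so the p-values measure only the spread between these libraries.

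BAK1 (ENSG00000030110, chromosome 6, 33572547 to 33580293, GRCh38, minus strand) encodes the effector that sits on the mitochondrial membrane in healthy cells. It was counted 1720, 689 and 792 times, or 31.9, 12.1 and 14.8 FPKM. Both KO libraries held less than WT by a margin well beyond their distance from each other. Its level was 37.2% of the WT CPM in the library labelled sgFLI1-1 (log2 ratio -1.43, exact binomial 95% interval -1.56 to -1.30) and 45.6% in the library labelled sgFLI1-2 (-1.13, -1.26 to -1.01). These intervals cover counting error only. Over both libraries its log2 fold change in edgeR was -1.27, with an SE of 0.19 and an adjusted p of 0.00208. DESeq2 also called it (adjusted p = 5.38e-05). The call was lost under quantile normalization (adjusted p = 0.052, log2 fold change -1.25) and when genes with low counts were kept (0.137, -1.27).

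BAK1 lies beside the major histocompatibility complex (MHC) region. Within 5 Mb of it 42 of 207 tested genes were called lower (20.3%) and 3 higher, among them 17 of the 21 HLA genes there. The median log2 fold change of those neighbours was -0.29, and that of the 162 neighbours that were not called was -0.08. For the other 9 members the same regional median lay between -0.12 and 0.01. The part of this region in the BAK1 value was not tested. The tested genes of at least 5 FPKM whose pair of log2 CPM ratios lay nearest to that of BAK1 were FST (1474, 581 and 658 counts), BST2 (6796, 2837 and 3164) and SPSB1 (1059, 438 and 506), at distances of 0.0503, 0.061 and 0.0709 on the log2 scale. The likeness rests on 3 libraries.

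BAX (ENSG00000087088, chromosome 19, 48954815 to 48961798), the effector that moves from the cytosol to mitochondria, had 1177, 1190 and 1127 counts, or 39.3, 37.6 and 38.4 FPKM. All 3 libraries lay close together. Its log2 fold change was -0.08 (SE 0.18, adjusted p = 0.837), and the interval for each KO library (-0.21 to 0.02 and -0.20 to 0.04) included no change. As a result the ratio of BAX to BAK1, in FPKM, was 1.23, 3.11 and 2.59.

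The effector genes share a role and differed in their change, and the 250 bases upstream of their RefSeq start sites are shown for that reason (GRCh38, 5′ to 3′ on the gene's strand, chr6:33580277-33580526 for BAK1 and chr19:48954625-48954874 for BAX). Capitals mark GGAA or its complement TTCC, the core that ETS factors bind, and CACGTG, the E-box that MYC binds; the E-box was searched after the sequences were seen.
BAK1: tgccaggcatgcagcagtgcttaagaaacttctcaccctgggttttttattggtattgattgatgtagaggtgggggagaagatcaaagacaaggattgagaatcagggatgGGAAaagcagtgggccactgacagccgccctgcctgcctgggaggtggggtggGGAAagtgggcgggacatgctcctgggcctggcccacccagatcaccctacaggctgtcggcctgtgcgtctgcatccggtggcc
BAX: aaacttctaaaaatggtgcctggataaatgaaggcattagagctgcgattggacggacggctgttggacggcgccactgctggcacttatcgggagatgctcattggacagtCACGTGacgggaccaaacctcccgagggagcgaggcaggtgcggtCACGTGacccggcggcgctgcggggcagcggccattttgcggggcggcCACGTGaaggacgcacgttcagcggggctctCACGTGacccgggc
The BAK1 stretch held 2 GGAA cores, no TTCC and no CACGTG. The BAX stretch held no GGAA core on either strand and 4 CACGTG sites. GGAA on either strand was present in 92.7% of 35116 RefSeq promoter stretches of this length, with a median of 3 matches, and 76.5% had 2 or more. CACGTG was present in 6.34%, and 4 or more in 0.0142%. The motif and the count of 4 were both taken from the BAX stretch, so the latter share is no test of BAX. Both printed stretches stop at the start site. The window searched for the full ETS motif, described further on for BCL2L1, also takes in bases after the start site. Among those later bases BAK1 had a TTCC, and BAX had neither GGAA nor TTCC. The absence of TTCC for BAK1 therefore holds for the upstream stretch only. The matches describe the letters and do not show binding.

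**Figure D2:**
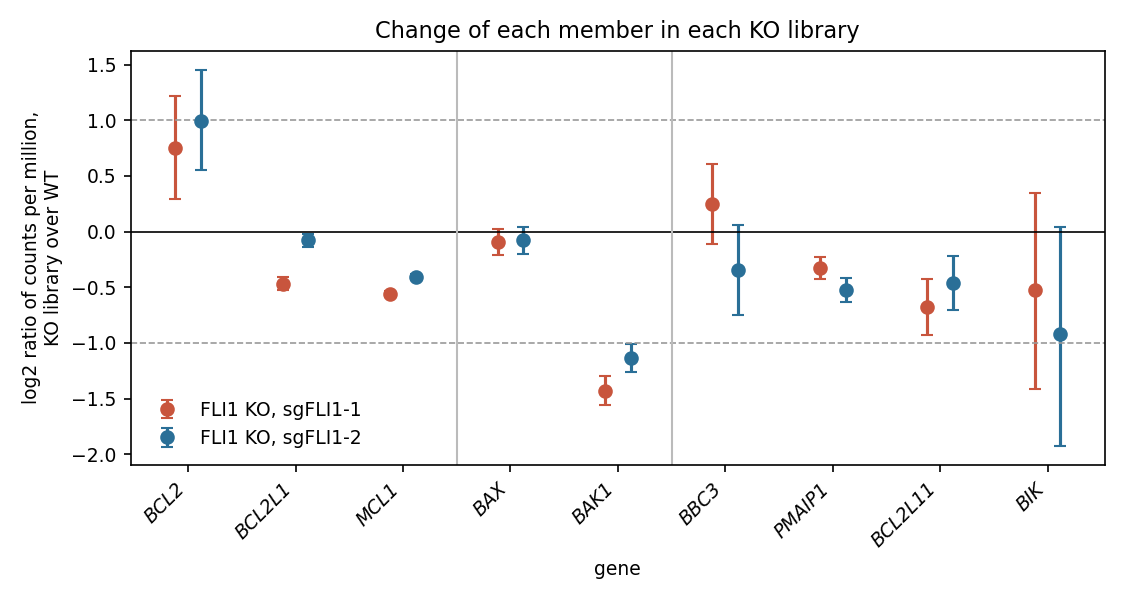
Log2 ratio of CPM of each KO library over WT for 9 of the 10 genes, with exact binomial 95% intervals that cover counting error only; BMF (5 counts or fewer) is left out and dashed lines mark 2-fold. BAK1 is past 2-fold lower in both libraries (-1.43 and -1.13), BAX is near 0, and BBC3 lies on opposite sides of 0.

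The survival genes differed in abundance by orders of magnitude. MCL1 (ENSG00000143384, chromosome 1, 150560895 to 150579738) encodes a short-lived guardian that restrains BAK and is bound by NOXA. It had 25417, 18576 and 19387 counts, or 253, 168 and 189 FPKM, above 98.5% of tested genes in WT. Both KO libraries were below WT, at 67.8% and 75.5% of its CPM. The log2 fold change of -0.48 (SE 0.14) had an edgeR adjusted p of 0.0794 and a DESeq2 adjusted p of 0.0995, so it did not pass. The gene overlaps ADAMTSL4 on the opposite strand (1284, 1093 and 1141 counts), and whether strand was used in counting is not stated in the sources at hand.

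BCL2L1 (ENSG00000171552, chromosome 20, 31664452 to 31723989), the gene of BCL-XL and its pro-death splice form BCL-XS, had 5048, 3939 and 4837 counts, or 77.2, 58.2 and 73.4 FPKM. The libraries labelled sgFLI1-1 and sgFLI1-2 lay apart for this gene, at 72.4% and 94.8% of the WT CPM. The log2 ratio between them was 0.39 (exact binomial 95% interval 0.33 to 0.45, counting error only). The log2 fold change was -0.26 (SE 0.19, adjusted p = 0.496). BCL2L1 was the 1 member with the full ETS motif CCGGAAGT in a RefSeq promoter (250 bases before to 50 after the start site, both strands), a motif held by 4.14% of all such promoters. It begins at base 10 of the transcript and is shown in capitals with its surroundings (GRCh38, chr20:31723936-31723965, minus strand, 5′ to 3′).
BCL2L1: ttgccgcggcaCCGGAAGTgactgagcttg
RefSeq promoters were matched for 8 of the 10 members. None of the matched promoters held the consensus kB site of NF-kB on either strand, which 0.191% of all promoters held.

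BCL2 (ENSG00000171791, chromosome 18, 63123346 to 63320128), the founding survival gene of the family, was scarce and went the other way. It had 63, 114 and 127 counts, or 0.374, 0.73 and 0.822 FPKM, below 1 FPKM in each library. Both KO libraries were above WT, with log2 CPM ratios of 0.75 (interval 0.29 to 1.21) and 1.00 (0.55 to 1.46). The log2 fold change of 0.88 (SE 0.40, adjusted p = 0.249) did not pass the test. BCL2 made up 0.113%, 0.322% and 0.312% of the summed survival FPKM. MCL1 made up 76.5%, 74% and 71.8%, and BCL2L1 23.3%, 25.7% and 27.9%.

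Among the 5 BH3-only members PMAIP1 was by far the most abundant. PMAIP1 (ENSG00000141682, chromosome 18, 59899996 to 59904305) encodes NOXA, which binds MCL-1 in preference to BCL-XL. It had 1814, 1562 and 1275 counts, or 39.2, 31.4 and 27.5 FPKM, a level like that of BAX in WT. Both KO libraries lay below WT (log2 CPM ratios -0.32 and -0.52). The log2 fold change was -0.42 (SE 0.18, adjusted p = 0.218), which did not pass.

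BCL2L11 (ENSG00000153094, chromosome 2, 111119378 to 111168445) encodes BIM, which binds every survival protein of the family and can activate the effectors. It had 328, 221 and 241 counts, or 4.39, 2.62 and 3.84 FPKM. Its deposited measures differed for the library labelled sgFLI1-2, at 72.7% of WT by CPM and 87.4% by FPKM. The log2 fold change was -0.56 (SE 0.26, adjusted p = 0.258). The gene overlaps the noncoding MIR4435-2HG on the opposite strand, which had more counts (1880, 1487 and 1432) than BCL2L11 itself.

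BBC3 (ENSG00000105327, chromosome 19, 47220822 to 47232766) encodes PUMA, which is induced by DNA damage and binds all the survival proteins. It had 118, 151 and 94 counts, or 2.81, 3.59 and 2.28 FPKM, and WT lay between the KO libraries. The log2 ratio of the library labelled sgFLI1-2 to that labelled sgFLI1-1 was -0.59 (interval -0.98 to -0.21), and the log2 fold change over both was -0.01 (SE 0.39, adjusted p = 0.989).

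BIK (ENSG00000100290, chromosome 22, 43110750 to 43129712), a BH3-only protein of the endoplasmic reticulum, had 28, 21 and 15 counts (1.18, 0.809 and 0.636 FPKM; log2 fold change -0.70, SE 0.69, adjusted p = 0.625). BMF (ENSG00000104081, chromosome 15, 40087890 to 40108892), which is held at the cytoskeleton until released, had 5, 1 and 2 counts and was not tested. Differences in these scarce genes were not detectable at this depth.

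The contrast between survival and pro-death genes was drawn per library from FPKM, which sets genes of different length on 1 scale. The 3 survival genes summed to 331, 227 and 263 FPKM and the 7 pro-death genes to 119, 88.2 and 87.6. Both sums were lower in each KO library than in WT. Their ratio was 2.78, 2.57 and 3.01, so WT lay between the KO libraries. Survival genes over effectors gave 4.65, 4.56 and 4.94, and survival genes over BH3-only genes 6.94, 5.89 and 7.67. By sums of counts, which weight long genes more, survival over pro-death genes changed by 0.00 (95% Wald interval -0.06 to 0.07, counting error only) and 0.22 (0.16 to 0.29) on the log2 scale. The first interval included no change, so by that measure the order of WT and the library labelled sgFLI1-1 was not settled. Survival over effectors changed by 0.19 (0.11 to 0.28) and 0.27 (0.18 to 0.35), above WT in both. With 1 WT library these ratios carry no test. In bulk RNA, fewer cells of a type and less RNA per cell cannot be told apart.

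**Figure D3:**
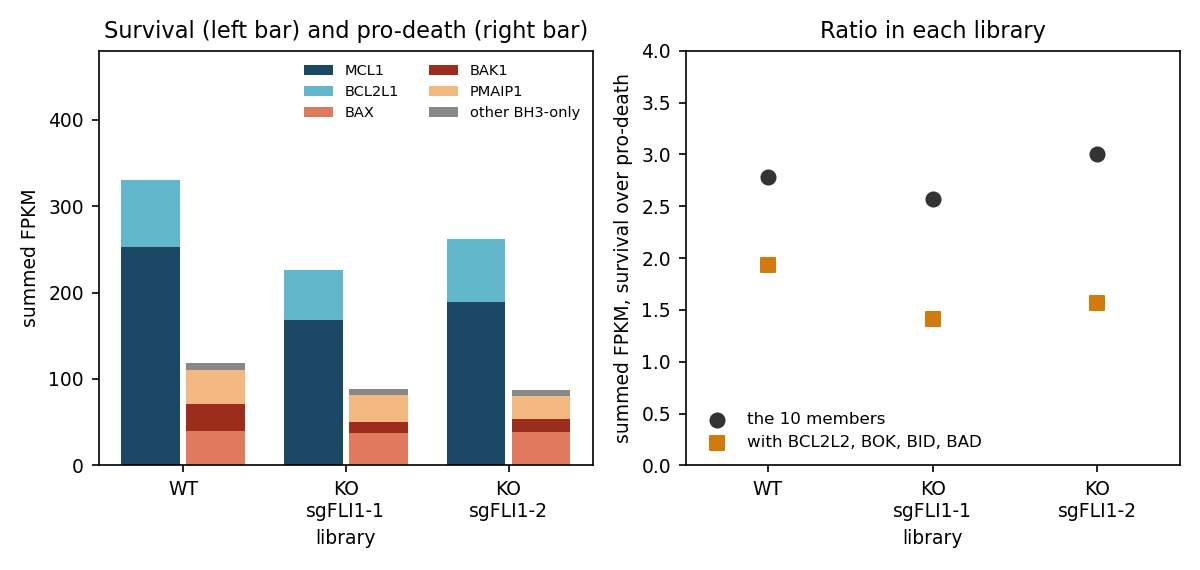
Left, summed FPKM per library of the survival genes (left bar of each pair) and the pro-death genes (right bar), stacked by gene; BCL2, under 1 FPKM, is not drawn. Right, the ratio of the sums for the 10 members (circles: 2.78, 2.57 and 3.01) and with BCL2L2, BOK, BID and BAD added (squares: 1.94, 1.41 and 1.56).

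Sums of this kind are set by the abundant genes. Within the pro-death sum the share of BAK1 was 26.8%, 13.7% and 16.9%, while that of BAX was 33.1%, 42.6% and 43.9%. Without BAK1 the log2 change of the ratio from WT to the mean of both KO libraries was -0.21, against -0.002 with it. With geometric means, in which scarce BCL2 and BMF count as much as MCL1, it was 0.80, and 0.58 without BMF, so that measure was higher in KO.

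The change of a pair's count ratio between libraries does not depend on library size, and is given here from counts. By FPKM some changes differed, such as that of MCL1 to BCL2L11 in the library labelled sgFLI1-2 (-0.23, against 0.05 by counts). Against BAK1 every survival gene was relatively more abundant in both KO libraries. The ratio of MCL1 to BAK1 changed by 0.87 (95% Wald interval 0.74 to 1.00, counting error only) and 0.73 (0.60 to 0.85) on the log2 scale, and that of BCL2L1 to BAK1 by 0.96 (0.82 to 1.10) and 1.06 (0.92 to 1.19). The pair of MCL1 and BAX moved in the opposite direction, by -0.47 (-0.59 to -0.35) and -0.33 (-0.45 to -0.21). For BCL2L1 and BAX the values were -0.37 and 0.00, which differ between the KO libraries. MCL1 to PMAIP1 gave -0.24 and 0.12, and MCL1 to BCL2L11 gave 0.12 and 0.05 with intervals that included 0.

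**Figure D4:**
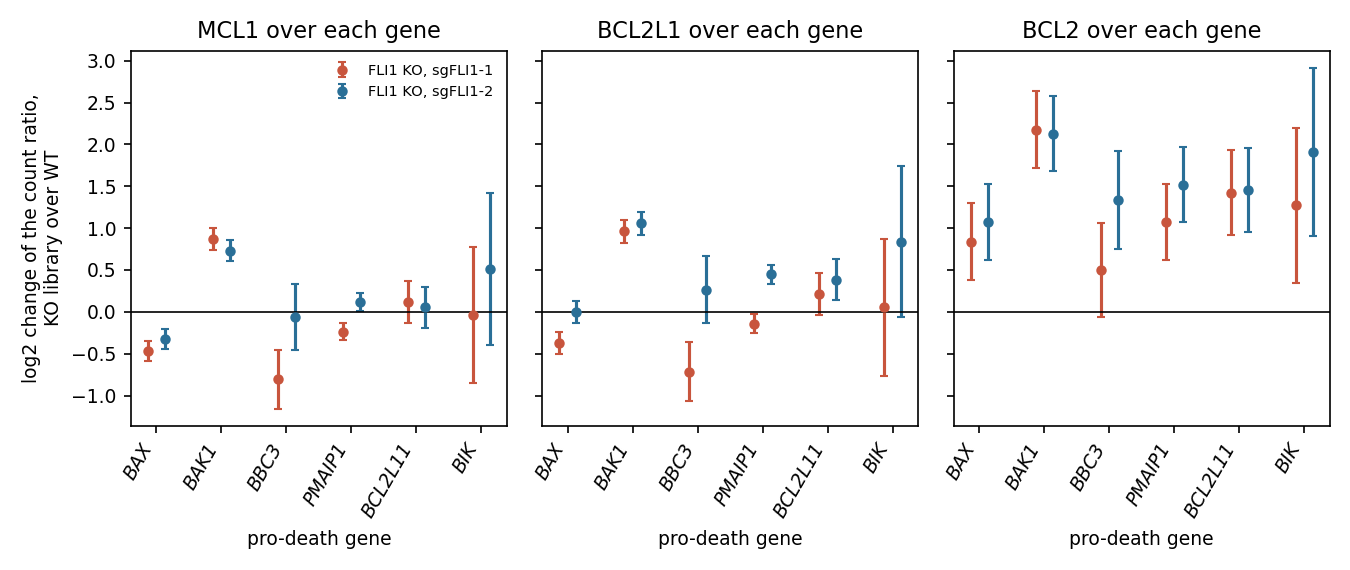
Log2 change of the count ratio of each survival gene (panels) to each pro-death gene (x axis) from WT to each KO library, with 95% Wald intervals that cover counting error only; BMF is left out. The ratios to BAK1 are above 0 for all 3 survival genes and both libraries, and those of MCL1 to BAX are below 0 in both.

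Of 13 further relatives of the family 9 were tested, 1 rose and 0 fell, beside 1.83% and 2.95% of all tested genes. The count of 0 lower was also 0 with DESeq2, and 2 were lower at an unadjusted p under 0.05. BAD, a BH3-only gene whose protein is switched off by survival kinases, had 324, 778 and 711 counts, or 12.7, 27.8 and 27.4 FPKM. Both KO libraries lay far above WT and close to each other. BAD rose 2.20-fold (log2 fold change 1.14, SE 0.21, adjusted p = 0.00727), a call lost under quantile normalization (adjusted p = 0.0601) and when low counts were kept (0.165).

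BID, which caspase-8 cleaves to link death receptors to mitochondria, had 1423, 2013 and 2026 counts (29.1, 37.9 and 47.2 FPKM). Its log2 fold change of 0.45 (SE 0.18, adjusted p = 0.181) did not pass. BNIP3, a mitophagy receptor, had 1044, 594 and 608 counts and passed the adjusted p but not the fold threshold (-0.86, SE 0.18, adjusted p = 0.0184), a pass lost under quantile normalization (0.10) and when low counts were kept (0.215). Its paralogue BNIP3L had 1099, 1863 and 1549 counts (0.57, adjusted p = 0.104), the other direction.

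The remaining relatives did not pass either. BCL2L2, the gene of the survival protein BCL-W, had 560, 584 and 554 counts (-0.04, adjusted p = 0.941), and the effector-like BOK 883, 791 and 725 (-0.28, adjusted p = 0.432). BCL2L13 had 2353, 1719 and 1745 counts (-0.50, adjusted p = 0.122), BCL2L12 864, 845 and 660 (-0.26, adjusted p = 0.506) and BCL2L15 5, 5 and 10 (0.52, adjusted p = 0.871). The survival gene BCL2A1 (1, 0 and 0 counts), BCL2L10 (0, 5 and 0), BCL2L14 (4, 5 and 2) and HRK (0 in each) were not tested.

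BID and BAD together summed to 41.8, 65.7 and 74.6 FPKM. When BCL2L2, BOK, BID and BAD were added to their sides, after their values had been seen, the survival genes summed to 338, 233 and 272 FPKM and the pro-death genes to 174, 165 and 174. The ratio was then 1.94, 1.41 and 1.56, lower than WT with either guide. On the log2 scale this was a change of -0.46 and -0.31 by FPKM, and of -0.35 and -0.16 by sums of counts.

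Genes that act at or after the mitochondrial step were not called. Of 18 genes of this machinery (cytochrome c, APAF1, caspases, inhibitors of apoptosis and their antagonists, and the VDAC channels) 0 rose and 0 fell with edgeR and with DESeq2, and 2 were higher and 2 lower at an unadjusted p under 0.05. Of all tested genes 4.78% were called, so a count of 0 in a list of this size is near the background. Their median log2 fold change was -0.02. CASP9, the initiator caspase of the apoptosome, had the highest value of them (230, 402 and 402 counts, log2 fold change 0.75, adjusted p = 0.102).

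Of 21 tested genes of the DNA damage response and cell cycle arrest 1 rose and 1 fell (1.83% and 2.95% of all tested genes), with a median log2 fold change of -0.02. At an unadjusted edgeR p under 0.05, 7 were higher and 4 lower. The RNA-binding gene ZMAT3 had 126, 376 and 355 counts (log2 fold change 1.48, SE 0.28, adjusted p = 0.0089), and the death receptor gene FAS 671, 276 and 227 (-1.48, SE 0.21, adjusted p = 0.00195). The ZMAT3 call was lost under quantile normalization (adjusted p = 0.0585), and both calls when low counts were kept (0.183 and 0.137). CDKN1A, the cell cycle inhibitor p21, passed the adjusted p but not the fold threshold (1389, 704 and 888 counts, -0.86, adjusted p = 0.0312), a pass lost under both of these settings (0.156 and 0.330).

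Of 20 fixed regulators of the members 3 rose and 3 fell (1.83% and 2.95% of all tested genes), with a median log2 fold change of 0.15. At an unadjusted edgeR p under 0.05, 7 were higher and 4 lower. The interferon-responsive factor IRF1 fell by 2.91 on the log2 scale (25965, 3520 and 3655 counts, adjusted p = 1.86e-06). STAT3, a transcriptional activator of MCL1 and BCL2L1, fell by 1.07 on the log2 scale (7262, 3382 and 3794 counts, adjusted p = 0.00342). MYC rose 2.03-fold (5277, 11445 and 10857 counts, adjusted p = 0.00351). The stress-induced factors ATF3 (258, 791 and 529 counts) and DDIT3, the gene of CHOP, which induces BCL2L11 (81, 244 and 199 counts), rose as well, with log2 fold changes of 1.29 and 1.39 (adjusted p = 0.0132 and 0.0378). The calls of STAT3 (adjusted p = 0.0578), ATF3 (0.119) and DDIT3 (0.111) were lost under quantile normalization, and these and that of MYC (adjusted p = 0.135) when low counts were kept. DDIT3 was likewise not called by DESeq2 (adjusted p = 0.0738) or with a minimum of 50 counts (adjusted p = 0.0528). The binding partners and ubiquitin enzymes on the list, among them DYNLL1 (0.44), DYNLL2 (-0.26), HUWE1 (-0.49) and USP9X (-0.25), were not called.

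**Figure D5:**
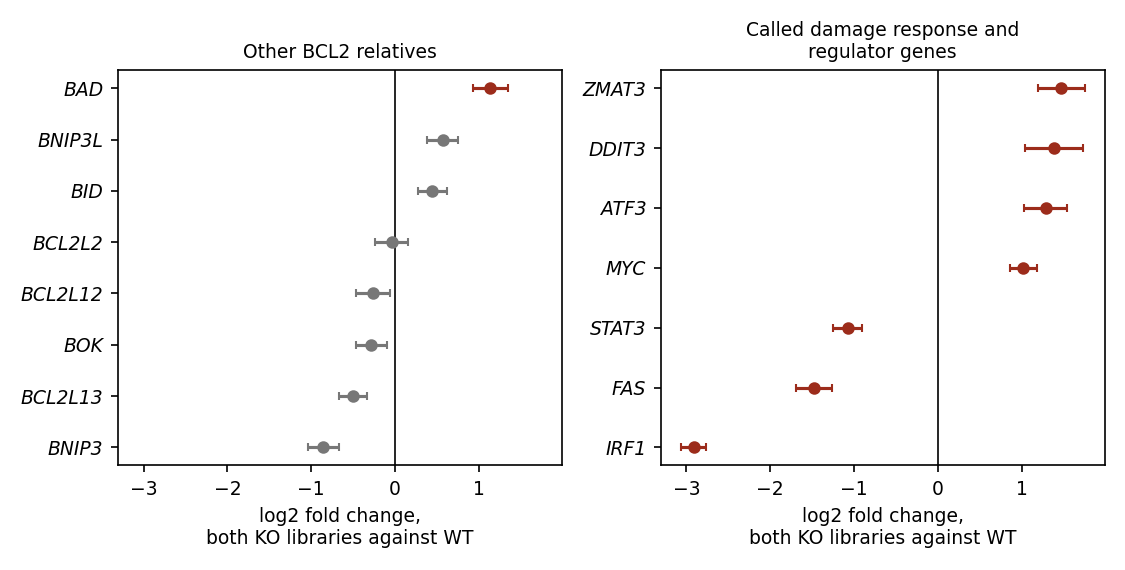
Log2 fold change of both KO libraries against WT with its SE for 8 tested relatives of the family (left) and called genes named from the damage response and regulator lists (right); called genes are in red and the others in grey. BCL2L15 (10 counts or fewer) is left out, BAD (1.14) is the 1 red point in the left panel, and IRF1 (-2.91) lies farthest from 0 in the right one.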

How the data were processed

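Poly-A RNA of 1 WT and 2 FLI1 KO samples was sequenced, and the genotype label gave the groups. The KO1 and KO2 columns were assigned to sgFLI1-1 and sgFLI1-2 by their number alone; a swap would exchange the values of the KO libraries. The authors trimmed reads with fastp (0.23.2), aligned them to GRCh38 with HISAT2 (2.0.4) and quantified genes with StringTie (1.3.4d). The authors deposited raw read counts per gene, made with a tool not given in the sources used here, and FPKM for the same genes. The table's 61550 genes gave 15483 tested ones, and 2 lines were empty.

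Counts were tested with edgeR (4.0.16, R 4.3.3) by glmQLFit and glmQLFTest after TMM scaling and filterByExpr (minimum count 10), with Benjamini-Hochberg adjusted p-values (two-sided test); DESeq2 (1.42.0) was an alternative. Each SE was derived by dividing the log2 fold change by root F. The fit was tested on simulated data. Ratios of CPM carry exact binomial intervals and ratios of gene pairs Wald intervals, in scipy (1.17.1). The alternatives also took in unfiltered counts, a 50-count minimum, median-of-ratios and quantile scaling, pseudocounts of 1 and 0.1 on FPKM, other ratio definitions and leaving out each KO library. Neighbour medians used tested genes within 5 Mb, or 10 Mb.

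All 10 members and 13 relatives were named, with called genes of the other lists and single genes picked after their values were seen (CDKN1A, CASP9, BIRC2, BIRC3, VDAC2 and the regulators not called). The members and lists were chosen with earlier results of these data known. The planned protein motif search was not run, and some results on the lists are not reported here. Promoter sequences are RefSeq's for GRCh38.p14, and the printed stretches matched the reference genome; all 10 members overlapped their GENCODE v44 gene.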

Additional observations from a re-analysis of the deposited data

How the results depend on the processing

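BAK1 was also the member called with a minimum of 50 counts, median-of-ratios scaling, DESeq2 and the adjusted p alone, and 0 members were called with quantile normalization or without a filter on low counts. Over all genes the count of calls was 740, against 287 with quantile normalization and 41 without the filter, which tested 26506 genes. Leaving out either KO library left 1 against 1, a value with no test. Of the 9 members that passed the filter on low counts, BAK1 alone was at least 2-fold from WT in each case. BMF (5, 1 and 2 counts), which did not pass it, also lay past 2-fold. The count over all genes was not run for these comparisons. Of 80 values of members under alternatives 72 kept their direction and call or moved less than the KO spread. BBC3 changed sign with quantile normalization (0.091, against -0.013), with either pseudocount on FPKM (0.025) and without the library labelled sgFLI1-2 (0.25). The log2 change of the survival to pro-death ratio (-0.002) was 0.11 with sums of counts, 0.80 with geometric means, 0.24 without BAX, 0.20 without MCL1, -0.21 without BAK1, 0.58 with geometric means and no BMF, and -0.38 with the added relatives, and -0.11 to 0.11 with 1 KO library left out; the last 3 definitions were chosen after seeing the data. The regional median farthest from 0, that around BAK1, was 0.29 in size within 5 Mb and 0.16 within 10 Mb. No paired analysis was possible because WT has 1 library. Depth limits BCL2, BIK and BMF most, and 1 WT library limits every comparison.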

Other observations

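BIRC3, an inhibitor of apoptosis induced by NF-kB, separated the KO libraries rather than the groups. Its counts were 1383 (WT), 693 (sgFLI1-1) and 1608 (sgFLI1-2), with log2 CPM ratios of -1.10 and 0.20 and a log2 fold change over both of -0.31 (SE 0.37, edgeR adjusted p = 0.693). It lies on chromosome 11, as does its neighbour BIRC2 (2120, 1832 and 2234 counts). The mitochondrial channel gene VDAC2, on chromosome 10, had 6854, 11157 and 7666 counts, with log2 CPM ratios of 0.59 and 0.15.

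For some relatives the deposited counts and FPKM gave different changes. BCL2L13 stood at 67.8% and 73.4% of WT by CPM and at 57.4% and 58.3% by FPKM, and BCL2L12 in the library labelled sgFLI1-1 at 90.7% by CPM and 120% by FPKM.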
